A study of Mus musculus with 4 samples.

Results

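The genes described here carry glucose into the cell and break it down to pyruvate and lactate. There are 10 of them among the 25965 genes listed, chosen by name but with earlier results of these data known. They are the glucose transporters Slc2a1 and Slc2a3, the enzymes Hk2, Gpi1, Aldoa, Pgk1, Pgam1, Pkm and Ldha, and the kinase Pdk1. All 10 were found, and all 10 passed a filter that kept 13264 genes with a mean log2 CPM of at least 0 over the libraries (CPM is the reads of a gene scaled to the total of its library).

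Glycolysis splits glucose into pyruvate in the cytoplasm and yields ATP without oxygen. Pyruvate then either becomes lactate, through lactate dehydrogenase, or enters the mitochondrion, where the pyruvate dehydrogenase complex feeds it into the TCA cycle. Naive mouse embryonic stem cells (mESCs) are known to use both routes, and the balance between them is known to shift when cells leave the naive state. Many glycolytic genes are known targets of the hypoxia-inducible factors (HIF), which bind DNA when oxygen is low, at sites whose core includes ACGTG or GCGTG; of these, ACGTG was searched.

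RNA was sequenced from female mESCs of an FVB/CAST F1 background, derived per the methods from FVB/NJ dams and CAST/EiJ sires. The growth protocol of the labels names Xmas lines, a reporter line of the same study, and the strain field was followed here. The Day0 library came from undifferentiated cells in 2i medium, which holds inhibitors of MEK and GSK3, with LIF. The other 3 libraries came from day 6 of a non-directed differentiation into serum medium without LIF: 1 with a non-silencing control hairpin (Nons) and 1 with each of 2 hairpins against Smarca4, an ATPase of the BAF chromatin remodelling complex (Smarca4.4 and Smarca4.6). The 3 day 6 cultures shared viral transduction on day 2 and puromycin selection on day 3, so Nons is the control for the hairpins. Each group is 1 library, and all 4 carry the replicate number 3. No difference below has a replicate check, no p-value was computed, and every interval covers counting error alone.

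Between Day0 and Nons, the day of differentiation, the medium, the transduction and the puromycin all differ and cannot be told apart. The methods describe suspension culture in 2i medium, with plating for attachment before differentiation was induced. Whether the Day0 cells were suspended or attached when taken is therefore not settled. The methods describe the 2i culture as held at reduced oxygen, which bears on HIF targets; the oxygen level of the day 6 cultures is not given in the sources used here. The cultures were not sorted, and in such bulk samples a larger share of cells of 1 type and more RNA per cell cannot be told apart.

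The libraries held 18.6 M reads (Day0), 45.8 M (Nons), 47.1 M (Smarca4.4) and 36.5 M (Smarca4.6). Smarca4 had a log2 CPM of 7.93 in Day0, 7.84 in Nons, 7.04 with Smarca4.4 and 7.44 with Smarca4.6. It was thus lower than Nons in both hairpin libraries, by −0.80 on the log2 scale (95% interval −0.85 to −0.76) and by −0.40 (−0.44 to −0.35), so that 57.3% and 75.8% of its Nons level remained. Of 8 markers of undifferentiated mESCs, 7 were at least 2-fold lower in Nons than in Day0, and the eighth, Pou5f1, was 0.34 higher. The genotype field of the labels calls every day 6 library, Nons included, a Smarcc knockdown, and groups were therefore taken from the titles. Reads of the Y-linked gene Ddx3y numbered 0 in Day0 and 83, 96 and 107 in the Nons, Smarca4.4 and Smarca4.6 libraries, although all are labelled female. In the same order, the Y-linked genes Uty and Eif2s3y had 0, 10, 33 and 38 reads and 0, 13, 27 and 20 reads. The part of such reads in the results below was not tested.

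The promoters of 4 of the genes are shown because they carry the letters of the HIF core motif and belong to genes whose levels after differentiation were higher (Ldha and Pgk1), lower (Hk2) or nearly the same (Pgam1). Each line gives the 250 bases before a RefSeq start site, 5′ to 3′ on the strand of the gene, and the capitals mark ACGTG on either strand. They are Ldha at chr7:46845554-46845803 (plus strand), Hk2 at chr6:82774455-82774704 (minus), Pgk1 at chrX:106186850-106187099 (plus) and Pgam1 at chr19:41911621-41911870 (plus), all on GRCm38.p6, the build also called mm10 on which the reads were aligned.
Ldha: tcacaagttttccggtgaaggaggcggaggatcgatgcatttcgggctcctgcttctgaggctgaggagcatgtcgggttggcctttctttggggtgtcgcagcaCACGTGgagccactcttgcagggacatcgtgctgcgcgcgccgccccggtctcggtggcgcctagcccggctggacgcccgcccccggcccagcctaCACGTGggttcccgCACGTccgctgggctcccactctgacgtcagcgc
Hk2: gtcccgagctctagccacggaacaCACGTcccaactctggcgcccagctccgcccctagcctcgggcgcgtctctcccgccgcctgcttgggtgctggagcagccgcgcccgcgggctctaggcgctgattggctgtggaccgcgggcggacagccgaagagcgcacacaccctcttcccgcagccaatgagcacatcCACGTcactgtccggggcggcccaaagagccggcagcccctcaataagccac
Pgk1: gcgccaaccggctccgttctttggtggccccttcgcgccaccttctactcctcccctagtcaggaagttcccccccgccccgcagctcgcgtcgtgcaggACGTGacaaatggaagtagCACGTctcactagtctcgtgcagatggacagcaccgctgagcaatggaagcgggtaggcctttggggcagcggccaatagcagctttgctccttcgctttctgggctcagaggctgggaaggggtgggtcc
Pgam1: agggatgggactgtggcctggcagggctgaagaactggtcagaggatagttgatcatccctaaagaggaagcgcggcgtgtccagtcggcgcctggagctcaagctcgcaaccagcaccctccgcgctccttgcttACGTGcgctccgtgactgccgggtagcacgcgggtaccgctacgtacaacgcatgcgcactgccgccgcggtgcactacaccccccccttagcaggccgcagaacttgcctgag

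The Ldha window held 5 matches, some of them overlapping on opposite strands where the letters read CACGTG, a motif known as an E-box. The Hk2 and Pgk1 windows held 2 each and the Pgam1 window 1. Of the 9 genes with a RefSeq promoter, 7 had ACGTG in at least 1 window: Slc2a1, Hk2, Aldoa, Pgk1, Pgam1, Pkm and Ldha. By the same search 18.5% of 27025 genes, or 16.6% of 32851 promoter windows, had the motif. The windows of Gpi1 and Pdk1 had none. CACGTG was found for 1 of the 9, Ldha, against 6.86% of all genes.

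**Figure D1:**
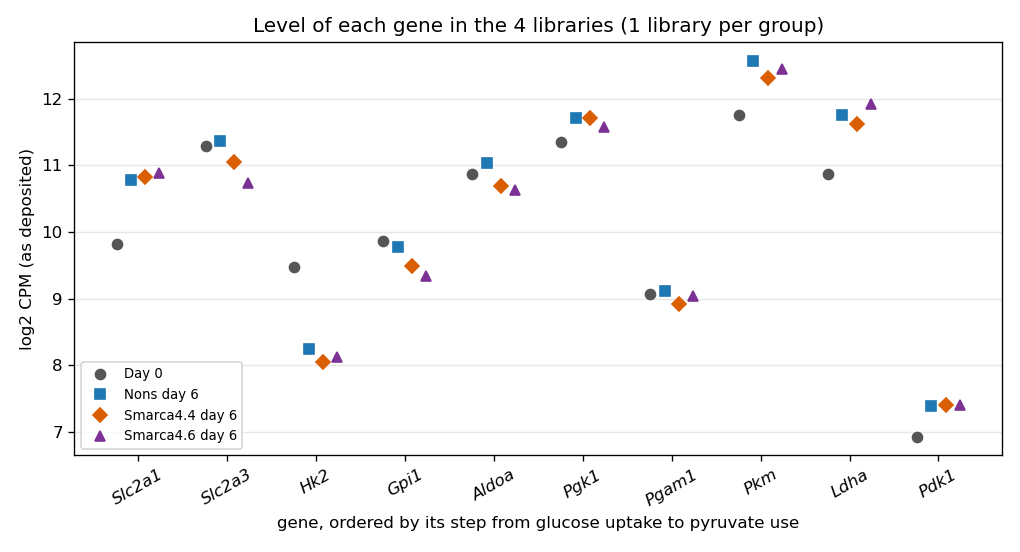
Log2 CPM as deposited (vertical axis) of the 10 genes, ordered from glucose uptake to pyruvate use, with 1 point for each of the 4 libraries. Day0 is the lowest point for Slc2a1, Pkm, Ldha, Pgk1 and Pdk1 and the highest for Hk2, while the 3 day 6 libraries lie closer to each other for these genes. Day0 is also the highest point for Gpi1, close to Nons.

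After differentiation, the control library had more RNA of the basal glucose transporter and of the last steps of glycolysis, and less of the first kinase. Slc2a1, Ldha and Pkm were each close to 2-fold higher in Nons than in Day0, Hk2 was more than 2-fold lower, and Pgam1, Slc2a3 and Gpi1 differed by 0.10 or less on the log2 scale. Of the 10 genes, 8 were higher and 2 lower, with a median difference of 0.27 against 0.031 over all genes kept, of which 51.4% were higher. None was at least 2-fold higher, where 19.6% of all genes were, and 1, Hk2, was at least 2-fold lower, where 12.3% were. At 1.5-fold, 3 were higher (background 28.4%) and 1 lower (background 22.4%). None of these shares stood clearly above its background, so the counts are no result about the 10 genes as a set.

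Uptake is the first step. Slc2a1 encodes GLUT1, the widely expressed basal glucose transporter (chromosome 4, 119108711 to 119137330, plus strand). Its log2 CPM was 9.83 in Day0, 10.78 in Nons, 10.83 with Smarca4.4 and 10.89 with Smarca4.6. Every day 6 library was therefore above Day0, by 0.95 for Nons (95% interval 0.92 to 0.97), a 1.93-fold difference that 20.4% of all genes kept exceeded. Against Nons, it was 0.05 higher with Smarca4.4 and 0.11 higher with Smarca4.6, both inside the middle 50% of all genes.

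Slc2a3 encodes GLUT3, the high-affinity transporter known from neurons and the early embryo (chromosome 6, 122727809 to 122801640, minus strand). It had a log2 CPM of 11.30 in Day0, 11.36 in Nons, 11.04 with Smarca4.4 and 10.73 with Smarca4.6. Day0 and Nons thus lay within 0.06 of each other, and both hairpin libraries lay below both. The differences from Nons were −0.31 (−0.33 to −0.30) and −0.63 (−0.64 to −0.61), which left 80.4% and 64.8% of the Nons level. Only 3.29% of all genes had a lower value in the Smarca4.6 comparison, and 9.86% in the Smarca4.4 comparison. The Smarca4.4 value lay just short of the threshold used for the hairpins, which was 20% lower or 25% higher than Nons. The hairpin with less residual Smarca4, Smarca4.4, was the one with the smaller difference. Gpi1, Aldoa and Pgk1 also differed less from Nons with Smarca4.4, whereas Hk2, Pgam1 and Pkm differed more. How these differences relate to the Smarca4 level was not tested.

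Set per length of exon, the transporters changed places. The ratio of Slc2a1 to Slc2a3, in CPM per kb, was 0.439 in Day0, 0.811 in Nons, 1.04 with Smarca4.4 (1.03 to 1.05) and 1.35 with Smarca4.6 (1.34 to 1.37). It was therefore below 1 in Day0 and Nons and above 1 in both hairpin libraries. The step from Day0 to Nons came with more Slc2a1, and the further step to the hairpin libraries came mostly with less Slc2a3. A ratio within a library does not depend on how the library is scaled.

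**Figure D2:**
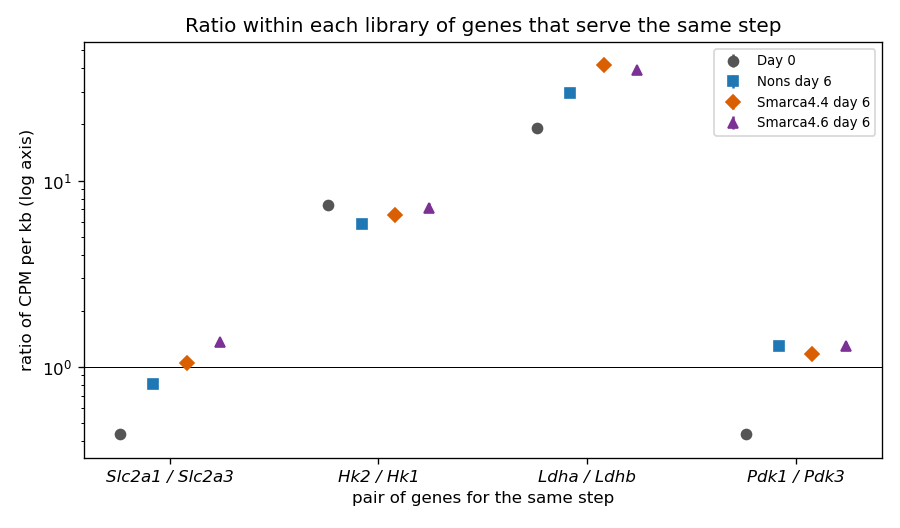
Ratio of CPM per kb (vertical axis, logarithmic) between genes that serve the same step, with 1 point per library and 95% counting intervals, which are mostly smaller than the points. The ratio of Slc2a1 to Slc2a3 goes from 0.439 in Day0 to 1.35 with Smarca4.6, and that of Pdk1 to Pdk3 is below 1 in Day0 and above 1 in the other 3 libraries.

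Hk2 encodes hexokinase 2, which phosphorylates glucose and so traps it in the cell (chromosome 6, 82725025 to 82774454, minus strand). Its log2 CPM was 9.47 in Day0, 8.25 in Nons, 8.05 with Smarca4.4 and 8.12 with Smarca4.6. Day0 stood above all 3 day 6 libraries, and Nons had 42.7% of the Day0 level, a difference of −1.23 (−1.26 to −1.19) that 9.04% of genes lay below. The hairpin libraries were lower than Nons by smaller amounts, −0.20 and −0.13.

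Its partner Hk1, the hexokinase of most adult tissues, had a log2 CPM of 6.38, 5.49, 5.13 and 5.07 in Day0, Nons, Smarca4.4 and Smarca4.6. Both hexokinases were thus lower at day 6. Per length, Hk2 remained the higher of the pair in every library, at 7.37 times Hk1 in Day0, 5.85 times in Nons, 6.54 times with Smarca4.4 and 7.15 times with Smarca4.6.

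Gpi1, which turns glucose 6-phosphate into fructose 6-phosphate (chromosome 7, 34202122 to 34230289, minus strand), had a log2 CPM of 9.87 in Day0, 9.77 in Nons, 9.49 with Smarca4.4 and 9.35 with Smarca4.6. Nons was 0.10 below Day0, and the hairpin libraries were below Nons by −0.28 (−0.30 to −0.26) and −0.43 (−0.45 to −0.40). Gpi1 was thus lowest in the hairpin libraries, with 82.3% and 74.5% of its Nons level.

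Aldoa encodes aldolase A, which splits fructose 1,6-bisphosphate and is the form known from muscle (chromosome 7, 126795234 to 126800751, minus strand). Its log2 CPM was 10.87 in Day0, 11.04 in Nons, 10.69 with Smarca4.4 and 10.62 with Smarca4.6. It was 0.17 higher in Nons than in Day0, and both hairpin libraries were below Day0 as well as below Nons. The differences from Nons were −0.35 (−0.36 to −0.34) and −0.42 (−0.43 to −0.40), and Aldoa was the only 1 of the 10 genes at least 20% lower with both hairpins.

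Pgk1 encodes phosphoglycerate kinase, the first ATP-yielding step of glycolysis, and is the only 1 of the 10 on the X chromosome (106187100 to 106203699, plus strand). Its log2 CPM was 11.35 in Day0, 11.71 in Nons, 11.71 with Smarca4.4 and 11.57 with Smarca4.6. Nons was 0.37 above Day0 (0.35 to 0.38). Over 498 X-linked genes kept, the median of the same difference was −0.66, and 117 of them (23.5%) had a higher value than Pgk1. Female mESCs silence 1 X chromosome as they differentiate, and both alleles are summed in these values.

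Against Nons, Pgk1 differed by −0.00095 with Smarca4.4 (−0.011 to 0.0092) and by −0.14 with Smarca4.6. The X-linked medians of these comparisons were 0.19 and 0.14, and 75.3% and 78.7% of X-linked genes lay above Pgk1. The testis form, Pgk2, had 0 reads in all 4 libraries, which allows up to 0.161 CPM in Day0 and up to 0.0822 CPM in the others. Copies of Pgk1 are common in the genome, and 67.5% of its transcript's 75-base stretches also occur in 4 other genes. One of these, Pgk1-rs7, had 587, 1532, 1594 and 1134 reads in Day0, Nons, Smarca4.4 and Smarca4.6, so the values of Pgk1 are uncertain to the extent that reads were split.

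Pgam1, phosphoglycerate mutase (chromosome 19, 41911871 to 41918664, plus strand), was the steadiest of the enzymes across differentiation. It had a log2 CPM of 9.06 in Day0, 9.11 in Nons, 8.92 with Smarca4.4 and 9.04 with Smarca4.6. The Nons value was 0.046 above Day0 (0.013 to 0.080), a direction that turned to −0.0034 when differences were centred on the autosomal median. Against Nons it differed by −0.19 and −0.07. Pseudogene copies share 40.6% of its 75-base stretches.

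Pkm encodes pyruvate kinase, which makes pyruvate and ATP (chromosome 9, 59656368 to 59679375, plus strand), and was the gene with the most reads of the 10. Its log2 CPM was 11.75 in Day0, 12.56 in Nons, 12.31 with Smarca4.4 and 12.44 with Smarca4.6. All 3 day 6 libraries were above Day0, Nons by 0.81 (0.80 to 0.83), a 1.76-fold difference. The hairpin libraries were below Nons by −0.25 and −0.12. The values sum the M1 and M2 splice forms, which a count per gene cannot separate. The liver form, Pklr, had 2 reads in Day0 and 48, 46 and 20 in the Nons, Smarca4.4 and Smarca4.6 libraries.

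Ldha encodes the A subunit of lactate dehydrogenase, the form that favours making lactate from pyruvate (chromosome 7, 46841475 to 46855627, plus strand). Its log2 CPM was 10.87 in Day0, 11.76 in Nons, 11.62 with Smarca4.4 and 11.93 with Smarca4.6. The 3 day 6 libraries lay above Day0, Nons by 0.90 (0.88 to 0.91), a 1.86-fold difference. Ldha was also the only 1 of the 10 with hairpins on opposite sides of Nons by more than the counting error, at −0.15 (−0.16 to −0.14) with Smarca4.4 and 0.16 (0.15 to 0.17) with Smarca4.6. The promoter with 5 matches printed above is 1 of 2 of this gene, and the window of the other had none.

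The B subunit gene, Ldhb, had a log2 CPM of 6.06 in Day0, 6.34 in Nons, 5.69 with Smarca4.4 and 6.09 with Smarca4.6. Per length, Ldha was 19.2 times Ldhb in Day0 (18.2 to 20.3), 29.5 times in Nons (28.6 to 30.5), 41.9 times with Smarca4.4 (40.3 to 43.6) and 39.3 times with Smarca4.6 (37.8 to 40.9). The balance was on the A side in every library and further so at day 6, and furthest with the hairpins.

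Pdk1 encodes a kinase that switches off the pyruvate dehydrogenase complex and so keeps pyruvate carbon from the TCA cycle (chromosome 2, 71873224 to 71903858, plus strand). Its level was the lowest of the 10, with a log2 CPM of 6.93 in Day0, 7.39 in Nons, 7.41 with Smarca4.4 and 7.41 with Smarca4.6. Nons was above Day0 by 0.46 (0.39 to 0.53), and the hairpin libraries were within counting error of Nons, at 0.019 (−0.026 to 0.065) and 0.020 (−0.029 to 0.068).

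The other kinases of the complex gave a different picture. Pdk3, which is X-linked, had a log2 CPM of 6.84 in Day0, 5.72 in Nons, 5.88 with Smarca4.4 and 5.74 with Smarca4.6. Pdk2 had −0.22, 2.10, 1.52 and 1.74, and Pdk4 had 2.67, 2.11, 1.70 and 1.22, in the same order. Per length, Pdk1 stood at 0.417 of the sum of Pdk2, Pdk3 and Pdk4 in Day0 and at 1.15, 1.09 and 1.20 times that sum in the Nons, Smarca4.4 and Smarca4.6 libraries. Most of that sum was Pdk3, at 54.3 CPM per kb in Day0 against 23.6 for Pdk1, and Pdk1 was second of the 4 kinases there. By reads, which are not set per length, Pdk1 equalled the other 3 together in Day0 within counting error (2273 against 2269).

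Ordered by CPM per kb of exon, Pgk1 (1426), Pkm (1323) and Ldha (985) led in Day0, and Hk2 (127) and Pdk1 (23.6) were lowest. In Nons, Pkm led at 2326, followed by Pgk1 at 1841 and Ldha at 1833, which did not differ beyond counting error (ratio 1.00, 0.997 to 1.01). With Smarca4.6, Ldha at 2053 stood above Pgk1 at 1672. Slc2a1 moved from eighth in Day0, at 279 CPM per kb, to above Slc2a3 in both hairpin libraries. The 10 genes together took 1.55% of the reads in Day0, 2.13% in Nons, 1.88% with Smarca4.4 and 1.93% with Smarca4.6. Without Pkm these shares were 1.21%, 1.52%, 1.37% and 1.37%, so the order with Day0 lowest and Nons highest did not rest on that gene.

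**Figure D3:**
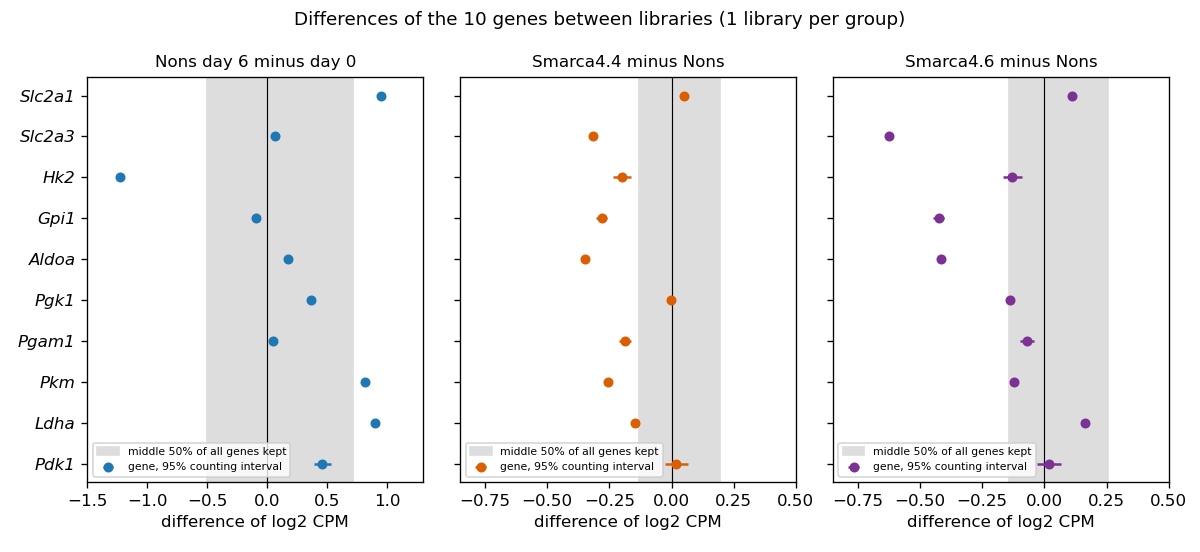
Differences of log2 CPM (horizontal axes) of the 10 genes in the comparison of Nons with Day0 and of each hairpin with Nons, with 95% counting intervals and a grey band for the middle 50% of all genes kept. Slc2a1, Pkm and Ldha lie right of the band and Hk2 left of it in the first panel, and most of the genes lie left of 0 in the hairpin panels.

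Against Nons, most of the genes were slightly lower with each hairpin. With Smarca4.4, 8 of 10 were lower, with a median difference of −0.19 against 0.038 over all genes, of which 56.5% were higher. With Smarca4.6, 7 of 10 were lower, with a median of −0.12 against 0.064 over all genes, of which 58.9% were higher. No gene differed 2-fold with either hairpin, where 1.19% and 1.82% of all genes did. At least 20% lower were 1 gene with Smarca4.4 (Aldoa, background 9.51%) and 3 with Smarca4.6 (Slc2a3, Gpi1 and Aldoa, background 11.8%). None was at least 25% higher with either, where 12.9% and 18.8% of all genes were.

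Both comparisons share the Nons library and are not independent of each other. Of the 10, 7 (Slc2a3, Hk2, Gpi1, Aldoa, Pgk1, Pgam1 and Pkm) were lower than Nons with both hairpins by any amount, where 30.1% of all genes were, and 2 (Slc2a1 and Pdk1) were higher with both, where 45.4% were. Under either other scaling (centred on the autosomal median, or median of ratios) Pdk1 also fell on the lower side with both, for 8 and 1. At least 20% lower with both was 1 gene (background 5.41%), and none was at least 25% higher with both (background 8.01%). Pgk1 is counted as lower with Smarca4.4 on a difference within counting error.

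**Figure D4:**
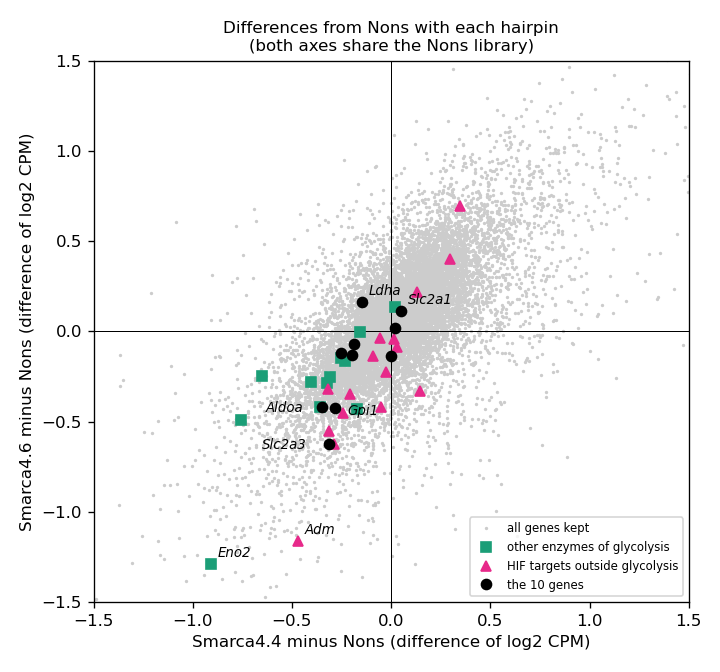
Difference from Nons with Smarca4.4 (horizontal) and with Smarca4.6 (vertical), in log2 CPM, for the 10 genes (black), the other glycolytic enzymes (green), HIF targets outside glycolysis (magenta) and all genes kept (grey; those beyond the axes are not drawn). The black and green points lie mostly in the lower left, with Ldha in the upper left; both axes share the Nons library.

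The other enzymes of glycolysis lay mostly on the same sides as the 10 genes. Of 22 listed, 12 passed the filter. In Nons against Day0, 9 were higher and 3 lower with a median of 0.51, where 51.4% of all genes were higher. Of the list, 1 was at least 2-fold higher (background 19.6%) and 1 at least 2-fold lower (background 12.3%). Pfkp, the platelet form of phosphofructokinase, had a log2 CPM of 9.45 in Day0, 7.09 in Nons, 6.78 with Smarca4.4 and 6.83 with Smarca4.6. The other phosphofructokinase genes were higher in Nons than in Day0, the liver form Pfkl by 0.75, from a log2 CPM of 9.02 to 9.77, and the muscle form Pfkm by 0.80, so that the forms of this step differed in direction and Pfkl was the highest of them at day 6. Eno3, the muscle enolase, went the other way, at 1.43, 4.66, 3.90 and 4.17.

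With the hairpins, 6 of the 12 were at least 20% lower with Smarca4.4 (background 9.51%) and 4 with Smarca4.6 (background 11.8%). None was at least 25% higher (background 12.9% and 18.8%), and the medians were −0.32 and −0.27. Of the 12, 11 were lower than Nons with both hairpins by any amount, beside the same background of 30.1%. Hk1, Eno2 and Eno3 were at least 20% lower with both (background 5.41%). Eno2, the enolase known from neurons, had the widest differences, −0.91 and −1.29, from a log2 CPM of 6.26 in Nons. Eno1, with the highest level of the list in Nons, had a log2 CPM of 11.28 in Day0, 11.72 in Nons, 11.49 with Smarca4.4 and 11.56 with Smarca4.6, and shares 65.4% of its 75-base stretches with other genes. Over the 22 genes of both lists that were kept, 18 were lower with both hairpins, and 19 were under either other scaling.

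Gapdh, on this list, had a log2 CPM of 5.75 in Day0. Other genes share 80.3% of its 75-base stretches, and its deposited values are therefore uncertain as levels.

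**Figure D5:**
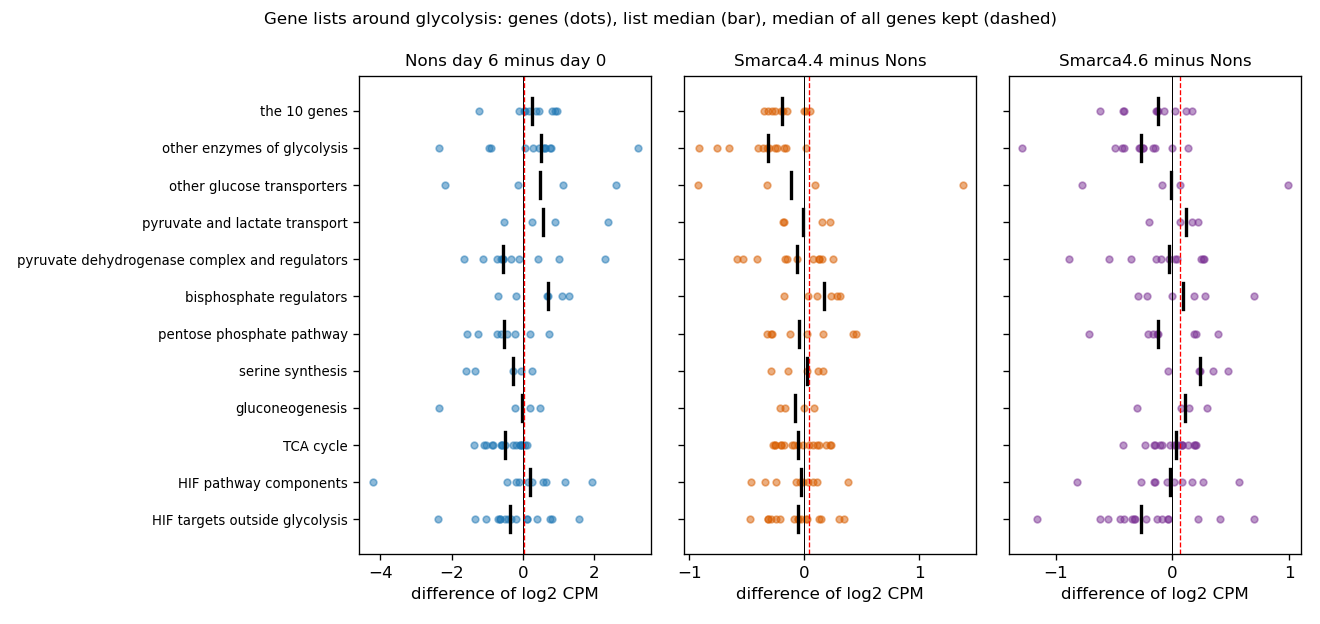
Differences of log2 CPM (horizontal axes) for each gene kept (dots) of 12 lists around glucose use, with the list median (black bar) and the median of all genes kept (dashed line), in the 3 comparisons. The 10 genes and the other glycolytic enzymes have medians right of the dashed line in Nons against Day0 and left of it in both hairpin panels, while the TCA cycle and pyruvate dehydrogenase lists lie left of it in the first panel.

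Genes of the TCA cycle, which burns pyruvate carbon in the mitochondrion, were mostly lower in Nons than in Day0. Of 17 TCA cycle genes, 15 were lower, with a median of −0.50, where 51.4% of all genes were higher. At least 2-fold lower were 3 (background 12.3%), Idh2 (−1.36), Idh3g (−1.09) and Sucla2 (−1.04), and none was 2-fold higher (background 19.6%). Against Nons the TCA medians were −0.055 and 0.030, and 1 gene, Idh2, passed the hairpin threshold, lower with Smarca4.6 (background 11.8%).

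Among 11 genes of the pyruvate dehydrogenase complex and its regulators, the median in Nons against Day0 was −0.54. Pdk2 (2.32) and the phosphatase Pdp1 (1.01) were at least 2-fold higher, and Pdp2 (−1.64) and Pdk3 (−1.12) at least 2-fold lower. Pdha1, the X-linked gene of the catalytic subunit, had a log2 CPM of 8.96 in Day0, 8.41 in Nons, 7.88 with Smarca4.4 and 7.87 with Smarca4.6. It was lower than Nons by −0.53 and −0.54, where 98.0% and 96.6% of X-linked genes had higher values. With both hairpins 3 were at least 20% lower (background 5.41%): Pdha1, Pdk2 and Pdk4.

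Other transport genes were few at these levels. Of 11 other glucose transporters, 4 passed the filter: Slc2a4, the insulin-responsive GLUT4 at a log2 CPM of only −1.22 in Day0, was 2.61 higher in Nons than in Day0 and lower with both hairpins (−0.93, interval −1.39 to −0.48, and −0.77, interval −1.26 to −0.30), and Slc5a2, a sodium-coupled transporter, was −2.18 lower in Nons and higher with both hairpins (1.38 and 0.99). Slc2a12 was 1.12 higher in Nons, and Slc2a8 had the highest level, at a log2 CPM of 3.50 in Nons. Of 8 genes of pyruvate and lactate transport, 6 were found and 4 kept. Emb, a chaperone of lactate carriers, was 2.39 higher in Nons, and Bsg, a partner of the same carriers with the highest level of the list in Nons, 0.26 higher; no gene of the list passed the threshold with a hairpin.

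The bisphosphate regulators set the pace of phosphofructokinase or divert its products. Of 7 listed, 6 were found and kept, with a median of 0.70 in Nons against Day0. Pfkfb3 (1.28) and Bpgm (1.10) were at least 2-fold higher, and the medians with the hairpins were 0.17 and 0.090.

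Branches that leave glycolysis were lower or mixed. Of 9 pentose phosphate genes, 8 were kept, with a median of −0.53 in Nons against Day0; Rpia (−1.56) and Tktl1 (−1.26) were at least 2-fold lower, and Tkt, the highest in Nons, differed by −0.23. Rpia was higher than Nons with both hairpins, at 0.43 and 0.39. All 5 genes listed under serine synthesis were kept, with a median of −0.29. Those at least 2-fold lower were both Shmt genes, Shmt1 (−1.59) and Shmt2 (−1.35). Psat1, the highest in Nons, differed by −0.050. Phgdh, at a log2 CPM of 7.65 in Day0 and 7.92 in Nons, was the only 1 of the list that was higher. Of 8 gluconeogenesis genes, 4 were kept, with a median of −0.011; Pcx, pyruvate carboxylase, was −2.34 lower, and Pck2, the highest in Nons, −0.22.

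The HIF genes did not move as 1 group. Among 10 components of the pathway, all kept, Epas1, which encodes HIF-2 alpha, had a log2 CPM of 5.57 in Day0, 1.35 in Nons, 1.74 with Smarca4.4 and 1.44 with Smarca4.6. Arnt2 (1.94) and Hif3a (1.18) were at least 2-fold higher in Nons. Egln3, an oxygen-sensing hydroxylase that is itself a HIF target and had the highest level of the list in Nons, was the 1 component at least 20% lower with both hairpins, by −0.46 and −0.82.

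Of 17 HIF targets outside glycolysis, 16 were kept. In Nons against Day0 their median was −0.37, with 10 lower and 6 higher, where the 10 glycolytic genes had a median of 0.27. Adm (1.59) was at least 2-fold higher, and Stc2 (−2.37), Car12 (−1.34) and Kdm3a (−1.02) at least 2-fold lower. With the hairpins the medians were −0.054 and −0.27, and 10 were lower with both (background 30.1%). With Smarca4.6, 7 were at least 20% lower (background 11.8%) and 2 at least 25% higher (background 18.8%). Adm was lower with both hairpins (−0.47 and −1.16) and Stc2 higher with both (0.35 and 0.70). Ddit4, the target with the highest level in Nons, was 0.81 higher in Nons and lower with the hairpins by −0.32 and −0.32.

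Markers of other cells moved with the same comparisons. The summed CPM of 9 muscle markers was 39.4 in Day0, where 6 were at or under the limit of 3 reads, and 1243 in Nons, 902 with Smarca4.4 and 769 with Smarca4.6. Of these, 5 were at least 20% lower with both hairpins (Tagln, Acta1, Acta2, Cnn1 and Des, background 5.41%). Aldoa, Eno3 and Slc2a4, genes known from muscle, were also lower with both. So were Eno2 and Slc2a3, known from neurons, and Hk1, of most adult tissues. Ttn, on the muscle list, supplied 37.3 of the summed CPM in Day0. Its difference between Nons and Day0 was −2.23, and it was higher with the hairpins, by 0.83 and 0.99. Tagln supplied 852 of the summed CPM in Nons, and other genes overlap 60.9% of its exon bases. The part of muscle-like cells in those values was not tested. The summed CPM of the 8 mESC markers was 4390 in Day0, 1083 in Nons, 846 with Smarca4.4 and 1117 with Smarca4.6. Pou5f1 alone supplied 915, 701 and 982 of the 3 day 6 sums, while Nanog and Sox2 were at least 20% lower with both hairpins. The 5 neural markers summed to 231, 448, 444 and 483, most of it from Nes at day 6 (43.7 CPM in Day0 and 380 in Nons), whereas the other 3 that were kept, Pax6, Tubb3 and Ncam1, were lower in Nons than in Day0. In the same order of libraries, the 6 fibroblast markers summed to 7.42, 27.9, 28.6 and 26.4, and the 6 endoderm markers to 8.12, 26.7, 32.5 and 32.5. Dab2 supplied 22.1 CPM of the endoderm sum in Nons, whereas Gata6 went from 3.55 CPM in Day0 to 0.612 in Nons. The 4 trophectoderm markers summed to 87.7, 22.2, 33.3 and 26.5, and the 3 blood markers found, of 4, to 5.75, 8.48, 6.70 and 4.90. Tfap2c supplied 85.6 CPM of the trophectoderm sum in Day0, whereas Gata3 went from 0.484 CPM in Day0 to 5.29 in Nons. With both hairpins, 2 neural and 2 endoderm markers passed the hairpin threshold on the higher side (background 8.01%). For Pax6 and Tubb3 the log2 CPM was 2.88 and 5.86 in Nons, 3.50 and 6.29 with Smarca4.4 and 3.48 and 6.47 with Smarca4.6. For Gata4 and Sox17 it was 1.16 and 0.693, 1.57 and 1.13, and 1.90 and 1.43 in these libraries. Pdgfra and Tfap2c also passed it, and no kept neural or endoderm marker was lower with both.

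Reads of some of the 10 genes can be shared with other genes. Other annotated genes hold 19.6% of the 75-base stretches of Pkm, 14.8% of those of Gpi1, 5.23% for Ldha, 1.49% for Aldoa and 0.973% for Slc2a1, and none of those of Slc2a3, Hk2 and Pdk1. For Pkm, Gpi1 and Slc2a1 these include a gene at the same place, which overlaps 12.9%, 12.3% and 3.22% of their exon bases. How reads with several matches were counted, and whether strand was used, are not given in the sources used here. The lower values of Slc2a3 with both hairpins and of Hk2 in Nons thus concern genes without such shared stretches.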

How the data were processed

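RNA-seq of 4 libraries, 1 per group, was used. Per the methods and labels, the authors removed adapters from the read pairs (trim_galore), mapped them with HISAT2 (tophat is also named) to mm10 with FVB/CAST differences masked, and quantified genes in SeqMonk. The deposited values are log2 CPM, scaled to each library's total, with both alleles summed. Back-transformed values were whole multiples of 1 step (99.9454% to 99.9763% within 0.05 reads), which gave the reads. A count of 3 reads corresponds to 0.161, 0.0656, 0.0636 and 0.0822 CPM in Day0, Nons, Smarca4.4 and Smarca4.6.

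Differences were taken between deposited log2 values, with exact (Clopper-Pearson) 95% intervals from the reads; as 1 molecule can give several reads, they hold counting error and nothing more. Scripts, checked on simulated reads, ran in Python 3.11.15 with pandas 2.3.3, scipy 1.17.1 and numpy 2.4.6; plots were drawn in matplotlib 3.10.9. No count test was run, as each group is 1 library; genes past 2-fold (differentiation), or at least 20% lower or 25% higher (hairpins), were counted. Exon lengths and shared 75-base stretches came from GENCODE M21 and promoters from RefSeq GRCm38.p6.

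The 10 genes and the lists were chosen with earlier results of these data known. From each pathway list, the text names genes past 2-fold between Day0 and Nons or past the hairpin threshold the same way with both hairpins, at most 4, and the highest in Nons. One gene that this rule names is not reported here. Partner isoforms are named beside the gene they serve with. Pfkl, Pfkm, Pklr, Gapdh, Phgdh, Ddx3y, Uty, Eif2s3y and the markers named were singled out after their values were seen. Other scalings, a pseudocount of 1 CPM, other filters and folds, and leaving out Pgk1 were tried.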

Additional observations from a re-analysis of the deposited data

Results flagged for a closer look

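Ldha was lower than Nons with Smarca4.4 and higher with Smarca4.6, and the difference between the hairpin libraries was −0.31 on the log2 scale (Smarca4.4 minus Smarca4.6, 95% counting interval −0.32 to −0.30). It is listed because the 2 libraries moved opposite ways against the same control. Each has 1 library, so the difference was not tested.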

How the results depend on the processing

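No paired analysis was possible because there is only 1 library in each group, and for the same reason no replicate could be left out. The autosomal median of the differences lay at 0.050, 0.032 and 0.061 for Nons against Day0, Smarca4.4 and Smarca4.6, and all changes are given on the scale as deposited. Of 62 recomputed counts and medians of the 10 genes, 49 stayed close to the reported value and 13 moved. Many of the 49 could not have moved. All 10 genes passed the stricter filter, so a change of filter altered nothing. Leaving out Pgk1 could not alter the counts, as it passed no threshold. Of the recomputed differences of single genes among the 10, 36 stayed within their counting interval and 53 moved outside it. A further 1 turned direction from beyond counting error. Of the recomputed medians of the other lists, 21 stayed close, 39 moved and 6 turned direction. At 1.5-fold in place of 2-fold, 3 genes were higher in Nons. The median in Nons against Day0 was 0.22 centred on the autosomal median, 0.24 by median of ratios and 0.17 without Pgk1. The Smarca4.4 median was −0.23 under both scalings, and the Smarca4.6 median −0.19 and −0.20. Under both scalings 2 genes, Aldoa and Slc2a3, were at least 20% lower with Smarca4.4 and with both hairpins; at 1.5-fold, 0 were lower with both. With a filter of at least 3 on the mean log2 CPM, the medians turned direction for other glucose transporters in Nons against Day0 (−0.13, 1 gene left), pyruvate dehydrogenase with Smarca4.4 (0.080) and Smarca4.6 (0.019) and bisphosphate regulators with Smarca4.6 (−0.0080). Centring turned serine synthesis with Smarca4.4 (−0.0081), the TCA cycle with Smarca4.6 (−0.031) and Pgam1 in Nons against Day0 (−0.0034). Counting error limits genes of low level, such as Slc2a4, and the differences of Pdk1 with both hairpins and of Pgk1 with Smarca4.4 lay within it; the spread between cultures is unknown.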
